A study of Mus musculus with 27 samples.

Results

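The genes described here are 10 transcripts of connective tissue, Col1a1, Col1a2, Col3a1, Col4a1, Col6a1, Dcn, Lum, Sparc, Mgp and Igfbp6, measured in myeloid cells sorted from the inflamed mouse colon. They were picked by symbol from the deposited intensity table, where 20 of 45281 probes carry 1 of these 10 symbols, of 30869 distinct symbols in all. They were put together because their signal was seen in these sorted cells, so their presence is what chose them and their levels are given as a description. The array was the Illumina MouseWG-6 BeadChip, on which each probe reads the abundance of a transcript as the brightness of labeled RNA bound to beads.

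All colon arrays came from mice given 2% dextran sulfate sodium (DSS), a detergent-like sugar polymer in the drinking water that injures the colon epithelium and causes colitis. WT mice and mice lacking the methyl-CpG-binding protein Mbd2 throughout the body (Mbd2-/-, labelled Mbd2KO), both of the C57BL/6 background and, where possible, littermates housed together, were compared. From the lamina propria, the connective tissue under the epithelium, CD11b+Ly6C+ monocytes (5 WT and 5 Mbd2-/- arrays), CD11b+Ly6C-MHC-II+F4/80+ macrophages (5 and 5) and CD11b-CD11c+CD103+ cDC1s, labelled CD11bnegDC (2 and 3), were sorted after enzymatic digestion of the tissue, each gate being CD45+Ly6G-Siglec-F-. A further WT and a further Mbd2-/- array held splenic CD4+ T cells taken 6 weeks after the transfer of T cells that causes another form of colitis. Colon replicates were pools of a varying number of mice from separate experiments, and no label says which arrays share mice or an experiment, so p-values measure the spread between these arrays.

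Fibrillar collagens form the cables that give the gut wall its strength: Col1a1 and Col1a2 encode the chains of type I collagen, and Col3a1 the chain of type III. Col4a1 encodes a chain of the collagen sheet in basement membranes, and Col6a1 a chain of the beaded filaments that lie around cells. Decorin (Dcn) and lumican (Lum) are small leucine-rich proteoglycans that bind collagen fibrils and set their thickness, Sparc binds collagen and calcium, and matrix Gla protein (Mgp) is a vitamin K-dependent inhibitor of calcification. Igfbp6 is a secreted binding protein that holds insulin-like growth factor II. In the gut these transcripts are known mainly from fibroblasts, and Col4a1 and Sparc also from endothelium and smooth muscle, while monocytes, macrophages and dendritic cells are known more for taking up and degrading collagen than for making it.

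The stretches of DNA before the start of 3 of these genes are shown because 9 of the 10 genes moved together across arrays and Igfbp6 did not. They are RefSeq promoter sequences of build GRCm38.p6, 250 bases up to the base before the annotated start, written 5′ to 3′ on the strand of the gene, with matches of 3 searched words in capitals. The words searched on both strands were that of the CCAAT box, that of the TATA box, spelled TATAAA here, and that of the GC box, spelled GGGCGG. Col1a2 lies at chr6:4505368-4505617 (plus strand), Col3a1 at chr1:45311288-45311537 (plus strand) and Igfbp6 at chr15:102143936-102144185 (plus strand).
Col1a2: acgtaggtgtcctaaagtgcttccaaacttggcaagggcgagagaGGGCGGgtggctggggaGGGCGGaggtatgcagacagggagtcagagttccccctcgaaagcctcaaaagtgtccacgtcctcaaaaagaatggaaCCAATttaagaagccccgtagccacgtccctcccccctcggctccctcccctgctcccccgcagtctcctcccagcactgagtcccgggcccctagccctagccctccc
Col3a1: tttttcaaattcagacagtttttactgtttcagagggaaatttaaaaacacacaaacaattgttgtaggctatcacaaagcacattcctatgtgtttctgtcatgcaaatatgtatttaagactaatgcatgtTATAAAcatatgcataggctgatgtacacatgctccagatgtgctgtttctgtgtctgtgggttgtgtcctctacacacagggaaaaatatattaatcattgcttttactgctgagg
Igfbp6: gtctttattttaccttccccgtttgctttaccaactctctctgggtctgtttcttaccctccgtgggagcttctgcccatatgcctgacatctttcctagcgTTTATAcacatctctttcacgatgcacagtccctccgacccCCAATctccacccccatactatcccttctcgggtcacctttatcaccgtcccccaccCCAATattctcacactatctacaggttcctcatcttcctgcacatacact
Promoters were found for 6 of the 10 genes, the others being Col4a1, Col6a1 and Sparc. CCAAT was present in 3 of the 6 (Col1a2, Col4a1 and Igfbp6), against 33.8% of 32851 mouse promoters of the same length. TATAAA was present in Col3a1 and Igfbp6, against 12.4% of promoters, and GGGCGG only in Col1a2 among the 6, against 32.7%. The 3 words do not overlap one another in these windows. These are matches of letters and not sites known to be used. Along the chromosomes, Dcn and Lum are direct neighbors among protein-coding genes, and Col4a1 and Col6a1 stand next to their partner chains Col4a2 and Col6a2.

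Over the 27 arrays, mean raw intensity lay between 172 and 353, the negative control probes averaged 80.2 to 93.8, and 16024 to 18608 probes were detected (detection p under 0.05). The single Mbd2 probe was detected on 0 of 27 arrays and so gave no check of genotype. The sorted cells carried the transcripts of their labels: Clec9a and Xcr1, which mark cDC1s, were detected on 5 of 5 cDC1 arrays, and summed intensity of the 8 macrophage markers was 35337 to 42080 on macrophage arrays against 16293 to 21071 on monocyte arrays. No 2 arrays held identical values, the closest pair having r = 0.992 over all probes.

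The brightest probe of each of the 10 genes was detected on all 25 colon arrays. Of the 20 probes, 15 were bright enough to be tested in every comparison, and the other 5, a second Col1a1, Col3a1 and Col6a1 probe and a pair of Dcn probes, were detected on 0 to 3 of 25 arrays. Where a gene had a further bright probe, it followed the brightest across arrays within groups with r = 0.931 (Col6a1), 0.923 (Lum), 0.808 (Dcn) and 0.80 (Sparc), and a further Sparc probe followed it with r = 0.497. All levels below are log2 normalized intensities of the brightest probe, on a scale where an increase of 1 is a doubling, and levels of different genes are not compared because probes differ in brightness.

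Collagen transcripts were detected in all 3 colon cell types. Col1a1 averaged 5.95 ± 0.60 (SD, n = 10) in monocytes, 5.89 ± 0.64 (n = 10) in macrophages and 5.61 ± 0.49 (n = 5) in cDC1s, over both genotypes. Col3a1 averaged 7.49 ± 0.57, 7.48 ± 0.64 and 7.56 ± 0.85 in the same order, and Col6a1 8.54 ± 0.67, 8.59 ± 0.73 and 8.65 ± 1.08. Col4a1 averaged 8.96 ± 0.59, 9.13 ± 0.58 and 8.53 ± 1.13. Col1a2 was highest in cDC1s, at 6.69 ± 0.72, against 6.22 ± 0.46 in macrophages and 6.13 ± 0.43 in monocytes. The means of the 3 cell types spanned 0.08 for Col3a1, 0.11 for Col6a1, 0.34 for Col1a1, 0.56 for Col1a2 and 0.60 for Col4a1. For every collagen gene except Col1a2, that span was smaller than the SD between arrays of one group (0.57 to 0.74), and for Col1a2 it was 0.56 against 0.50.

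The matrix proteins bound to collagen followed the same pattern. Dcn averaged 10.81 ± 0.49 (SD, n = 10) in monocytes, 10.80 ± 0.41 (n = 10) in macrophages and 10.50 ± 1.24 (n = 5) in cDC1s. Sparc averaged 8.31 ± 0.62, 8.19 ± 0.51 and 8.00 ± 1.05, and Mgp 9.78 ± 0.66, 9.78 ± 0.57 and 9.37 ± 1.13. Lum was highest in cDC1s, at 7.16 ± 1.16, then monocytes, at 6.78 ± 0.45, and macrophages, at 6.53 ± 0.66. For these 4 genes too the span of the cell type means, 0.31 to 0.63, was no larger than the within-group SD, 0.65 to 0.74, so that neighbors in the order were not separated beyond the spread between arrays. Under median scaling in place of quantile normalization the span grew to 1.02 for Dcn, 1.20 for Col4a1, 1.07 for Mgp, 0.87 for Sparc and 0.67 for Col1a1, each above the within-group SD given by quantile normalization. It was 0.49 for Col3a1, 0.57 for Col6a1, 0.21 for Lum and 0.19 for Col1a2. How alike the cell types are in these genes thus depended on the normalization.

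Igfbp6 differed between cell types by far more than its spread. Its levels on WT monocyte arrays 1 to 5 were 8.92, 8.65, 8.83, 8.35 and 8.34, and on Mbd2-/- monocyte arrays 6 to 10 they were 8.74, 8.51, 8.70, 8.33 and 8.43. On WT macrophage arrays 11 to 15 they were 7.57, 7.29, 7.34, 6.94 and 6.54, and on Mbd2-/- macrophage arrays 16 to 20 they were 5.95, 5.85, 6.03, 5.18 and 5.27. The 10 monocyte arrays all lay above the 10 macrophage arrays, and the WT macrophage arrays all lay above the Mbd2-/- ones. On cDC1 arrays Igfbp6 was 5.76 and 5.95 in WT and 5.58, 7.03 and 5.19 in Mbd2-/-. These 5 arrays together spanned values of both macrophage groups, the WT ones lying below all WT macrophage arrays. Group means differed by up to 2.97 and accounted for 91.7% of the variance of Igfbp6 over the 25 arrays, against 8.73% (Col3a1) to 32.9% (Lum) for the other 9 genes. Over both genotypes its mean was 8.58 ± 0.22 in monocytes, 6.40 ± 0.87 in macrophages (SD, n = 10 each) and 5.90 ± 0.69 in cDC1s (n = 5). Monocytes were separated from macrophages in both genotypes. At the second step, WT macrophages lay above the 2 WT cDC1 arrays, while Mbd2-/- macrophages overlapped with Mbd2-/- cDC1s. The share of all probes separated in this way was not computed.

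**Figure D1:**
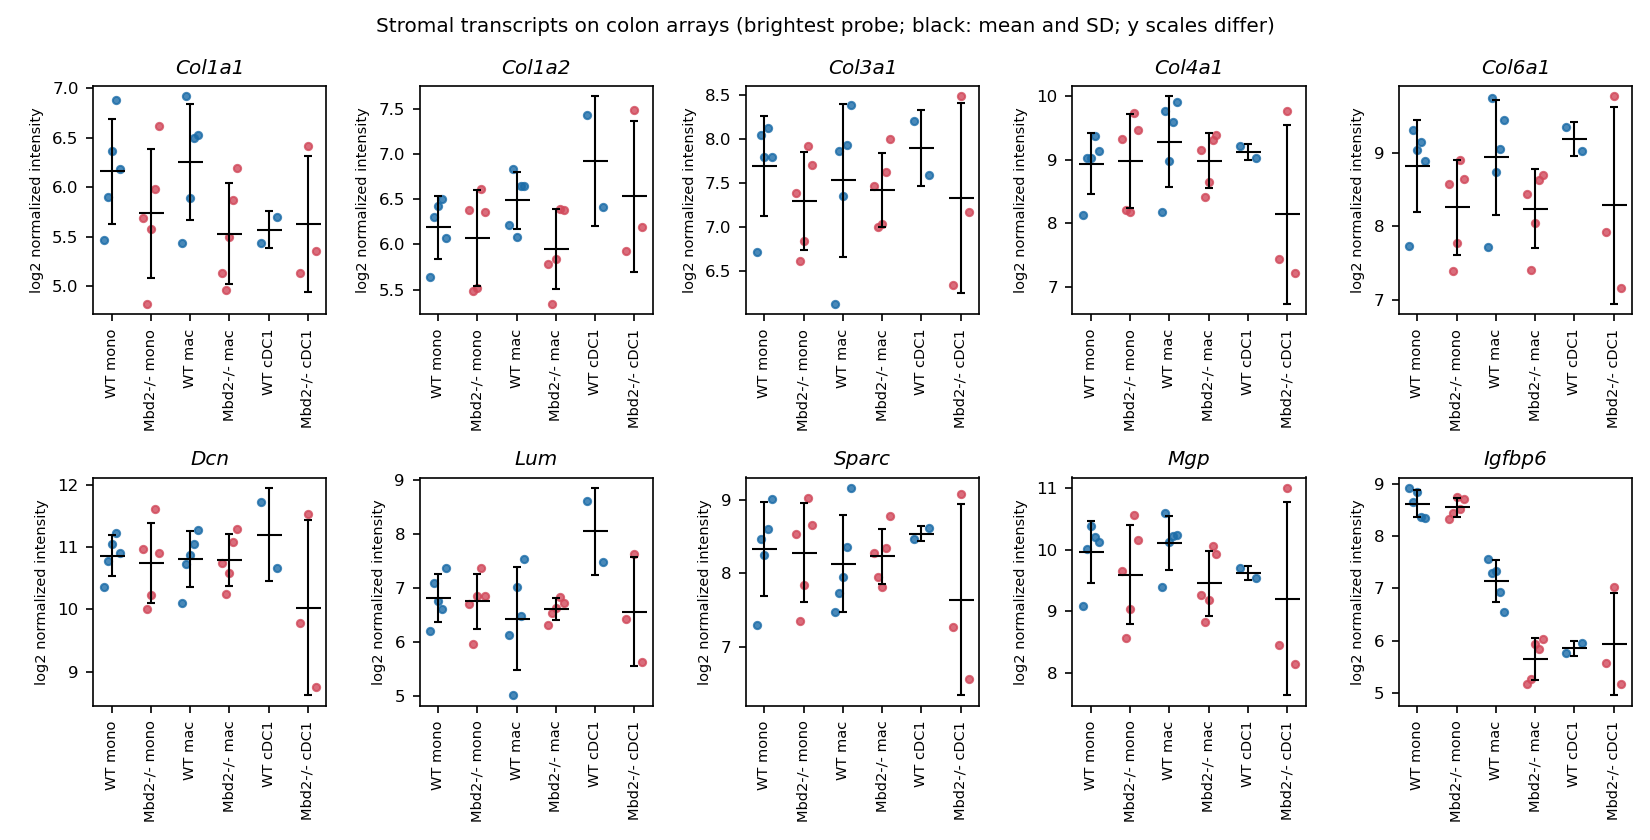
Log2 normalized intensity of the brightest probe of each gene on every colon array, by cell type and genotype (blue WT, red Mbd2-/-); black lines are the mean and SD, and the y axes differ between panels. For Igfbp6, the 10 monocyte arrays sit between 8.33 and 8.92, above all other arrays. Of the other 9 genes, only Lum, Col6a1 and Col1a2 have groups that do not overlap, in each case WT cDC1s (2 arrays) above 1 to 3 of the monocyte and macrophage groups. The share of all probes without overlap was not computed for these pairs of groups. With so few arrays it can be large, being 31.8% between the cDC1 genotypes, so these 3 genes are not thereby set apart.

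In splenic CD4+ T cells the genes were near background. Across the 10 brightest probes, log2 levels on the WT and Mbd2-/- T cell arrays were 4.2 to 4.7 when all 27 arrays were normalized together. The probes of 8 genes were detected on 0 of 2 T cell arrays, and Col1a2 (detection p 0.0224) and Igfbp6 (0.0395) only on the Mbd2-/- array. Against the dimmest signal that counted as detected on these arrays, Dcn was at least 74.2-fold higher in colon monocytes, 74.0-fold in macrophages and 60.0-fold in cDC1s, each such fold being a lower bound. The bounds for monocytes were 36.6-fold for Mgp, 20.9-fold for Col4a1, 15.6-fold for Col6a1, 13.3-fold for Sparc, 7.58-fold for Col3a1, 4.66-fold for Lum and 2.61-fold for Col1a1. The T cells differ from the colon cells in cell type, tissue, way of isolation and colitis model at once, and with 1 array per genotype no test was made. In bulk RNA, fewer cells carrying a transcript and less of it per cell cannot be told apart.

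Arrays of the same group differed, and 9 of the 10 genes mostly rose and fell together. The 2 WT cDC1 arrays differed least, at 1.17 and 0.855 of their group mean, with Col1a1 and Sparc running against the other 7 genes. Each array was set against the mean of its own group, and the deviations of the 9 genes other than Igfbp6 were averaged. On Mbd2-/- cDC1 array 28 the 9 genes lay on average 2.49 times above their group mean, with 9 of 9 above it. Mbd2-/- monocyte array 7 (1.59 times) and WT macrophage array 15 (1.49 times) were also high in 9 of 9. The lowest arrays were Mbd2-/- monocyte array 10 (0.569 of the group mean), WT macrophage array 11 (0.575), Mbd2-/- cDC1 array 30 (0.576) and WT monocyte array 1 (0.577), all with 9 of 9 genes below. As each array was set against its own group mean, every group holds arrays above and below that mean by construction.

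**Figure D2:**
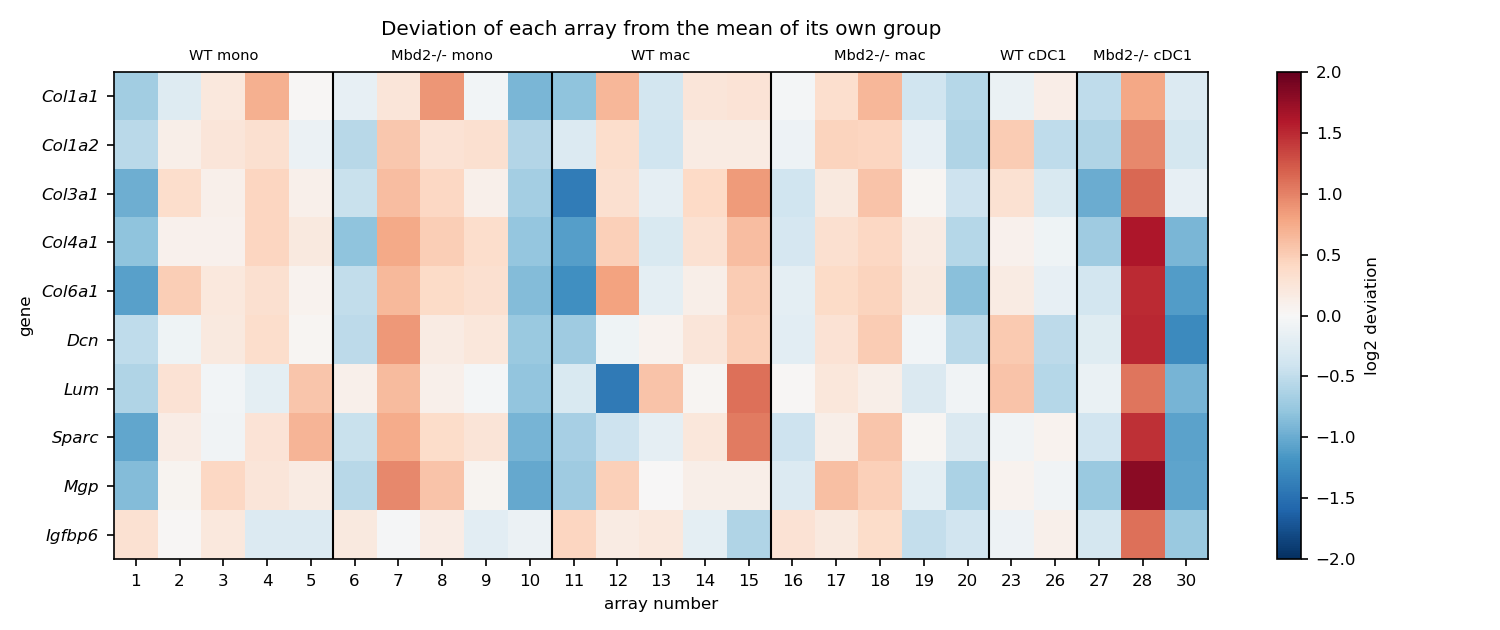
Log2 deviation of each of the 25 colon arrays (columns, by array number) from the mean of its own group, for the brightest probe of each gene (rows); red is above and blue below. Columns 1, 10 and 11 are blue from Col1a1 to Mgp and column 28 is red. The Igfbp6 row departs from this in columns 1 (0.30) and 11 (0.43) but not in columns 10 (-0.11) and 28 (1.10).

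Over the 36 pairs of these 9 genes the median correlation of deviations was 0.825 (25 arrays, range 0.264 to 0.957), and 0.829 without the cDC1 arrays. All detected probes had a median correlation of -0.01 with the mean of the 9 genes (19761 probes), and 1.29% of them exceeded 0.8. That is a correlation with a mean and not between pairs of genes, so it is not a like measure. Lum was the loosest of the 9, with a median of 0.512 over its 8 pairs. On WT macrophage array 12, for example, Lum was 5.02, the lowest of its group, while Mgp was 10.59, the highest of its group. Igfbp6 had a median correlation of 0.275 with the other 9, and of -0.22 over the 20 monocyte and macrophage arrays, so its link rested on the cDC1 arrays, in which array 28 was high for all 10 genes. All points share arrays, labeling and normalization, and these correlations are given as descriptions. Mean intensity of an array (r = -0.12) and its number of detected probes (r = 0.07) did not move with the 9 genes.

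The genes most like each of the 10 across arrays, by the correlation of deviations from group means over 25 arrays, are given for each in turn. Col4a1 was nearest to Serping1 (r = 0.989), a complement inhibitor, then Serpina3n (0.979) and Antxr1 (0.972). Col6a1 was nearest to Ramp2 (0.979), Lhfp (0.974) and the basement membrane laminin chain Lamc1 (0.969), and Mgp to the proteoglycan Ogn (0.965), Serping1 (0.953) and LOC98434 (0.953). Sparc was nearest to the matrix protein Fbln1 (0.960), Tgfbr3 (0.939) and tenascin Tnc (0.932). Dcn was nearest to the protease Adamts4 (0.939), Igfbp4 (0.935) and Hsd11b1 (0.921). Col1a1 was nearest to Mcam (0.930), the proteoglycan Bgn (0.906) and Robo4 (0.904), Col1a2 to 6330406I15Rik (0.932), Bcr (0.920) and Adamts9 (0.902), and Col3a1 to Hspb8 (0.956), Wwtr1 (0.953) and 6330406I15Rik (0.950). Lum was nearest to Sertad1 (0.872), Myl9 (0.825) and LOC669053 (0.824). The nearest genes of Igfbp6 were Gpt1 (0.838), Slc4a3 (0.811) and 2510002J07Rik (0.808), none of which was among those of the other 9.

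Genes of 6 related lists showed which parts of matrix biology moved with the 9 genes. Among the lists, 88 genes were detected on at least 5 colon arrays. Of these, 36 (40.9%) correlated with the mean of the 9 genes above 0.8, against 1.29% of all detected probes. In the stromal and fibroblast matrix list it was 18 of 31 genes, among them Fbln1 (0.969), Dpt (0.967), Col5a1 (0.940) and the fibroblast receptor Pdgfra (0.900). Others of that list did not follow, such as Emilin1 (0.29), Pi16 (0.25) and Fn1 (-0.13). In the basement membrane list it was 6 of 13, including Lamc1 (0.933), Col4a2 (0.930) and Hspg2 (0.928), and Lama4 was lowest at -0.29. In collagen biosynthesis it was 6 of 19. They were the cross-linking enzyme Loxl1 (0.948), the collagen chaperone Serpinh1 (0.930), the procollagen proteinases Bmp1 (0.920) and Adamts2 (0.908), Pcolce (0.873) and Leprel2 (0.809). Enzymes and partners that modify the collagen chains ranged widely, from Leprel2 and P4ha2 (0.774) down to Plod3 (-0.16). Among those in between were Plod2 (0.569), Plod1 (0.542), P4ha1 (0.254), Lepre1 (0.178), Crtap (0.165), Leprel1 (0.083) and P4hb (-0.03). In the insulin-like growth factor list it was 5 of 8, namely Igfbp7 (0.961), Igfbp4 (0.927), Igf2 (0.915), Igfbp5 (0.909) and Igfbp3 (0.895), while Igf1 was at 0.10. In the list of collagen receptors and uptake it was 0 of 12, where the macrophage collagen-uptake receptor Mrc1 was at -0.08 and Mfge8 highest at 0.758.

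Markers of other cell types were summed per array, without any of the 10 genes. The sum of 12 fibroblast markers moved with the 9 genes over 25 arrays (Pearson r = 0.968, Spearman rho = 0.910, and r = 0.954 without the 2 arrays farthest from the median), and 9 (Mbd2-/- cDC1s) to 12 (WT monocytes and WT cDC1s) of 12 were detected on all arrays of a colon group. Several of these markers, such as Col6a2, Col6a3 and Bgn, are matrix genes themselves. The sum is not specific to fibroblasts. It was 8335 (WT) and 8202 (Mbd2-/-) on the splenic T cell arrays, with 3 of 12 markers detected on each. Colon arrays normalized together with them reached at most 5612. Thy1, 1 of the 12, was at 12.98 and 12.94 (log2) on these T cell arrays. A sum without Thy1 was not computed. Smooth muscle markers (8 genes, r = 0.904) and endothelial markers (11 genes, r = 0.849) also moved with the 9 genes. Epithelial markers were bright, with a summed intensity of 6090 to 23176 on colon arrays, and correlated with the 9 genes at r = -0.11 over 25 arrays and at -0.50 without the cDC1 arrays. Macrophage markers moved the other way (r = -0.66, and -0.43 without the cDC1 arrays), T cell markers the same way (0.66), and the sums of the enteric glia (0.39), B and plasma cell (0.12), neutrophil (0.01), eosinophil (0.03), monocyte (0.20) and cDC1 (-0.10) lists followed less. Enteric glia markers were near the floor, 0 of 5 being detected on all arrays of any colon group. The part of other cells in the levels of the 10 genes was not tested.

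**Figure D3:**
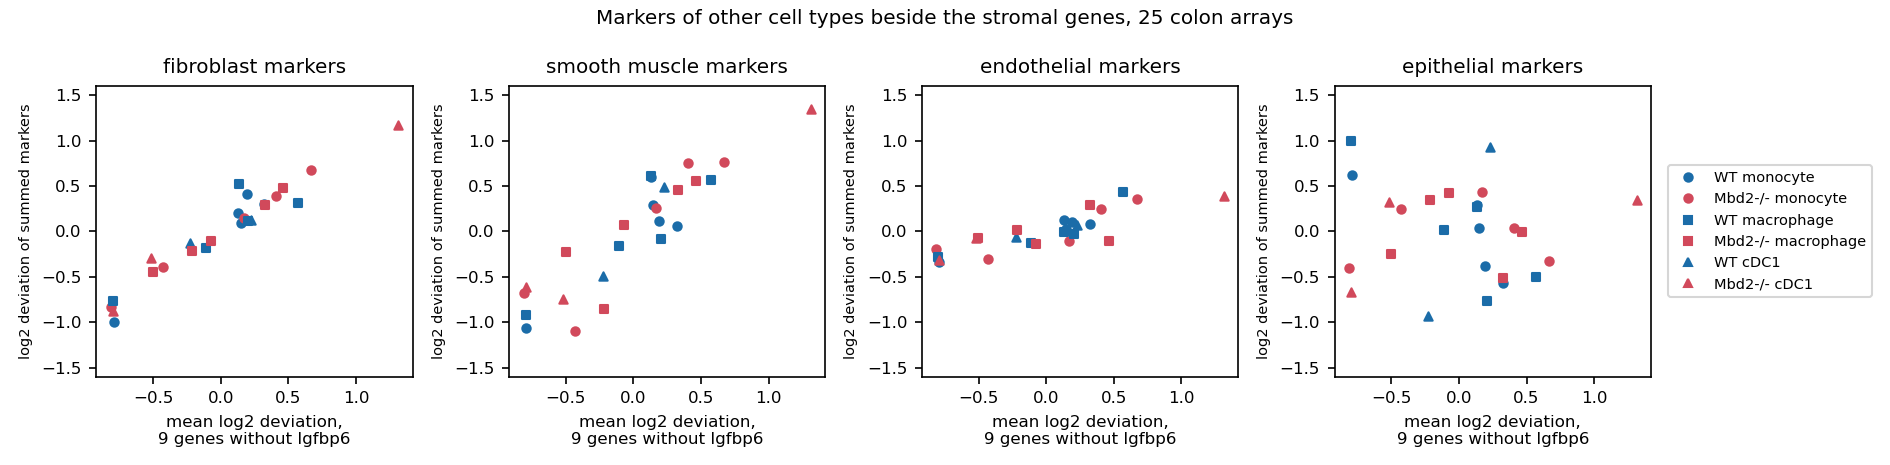
Log2 deviation of the summed marker intensity of a list from its group mean (y) against the mean log2 deviation of the 9 genes other than Igfbp6 (x), 1 point per colon array. Fibroblast (r = 0.968), smooth muscle (0.904) and endothelial (0.849) markers rise with the 9 genes, and epithelial markers do not (-0.11, and -0.50 without the cDC1 arrays).

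Monocyte and macrophage arrays whose numbers differ by 10 carried the same genotype, 5 pairs WT and 5 Mbd2-/-, and their deviations ran in parallel. Over these 10 pairs the mean of the 9 genes correlated with r = 0.873 (Spearman rho = 0.867, and r = 0.650 without the 2 farthest pairs), and 8 of 10 pairs deviated in the same direction. For Igfbp6 it was r = 0.899 (rho = 0.903, and 0.845 without 2 pairs), with 9 of 10 in the same direction. Single genes ranged from 0.216 (Lum) to 0.899 (Col6a1), against a median of 0.159 over all detected probes, of which 3.42% exceeded 0.8. The labels do not say whether such arrays came from the same mice, and the pairs were drawn up after the values had been seen. In the deposited table, arrays 1 to 3, 9 and 10 stand in the first 6 signal columns and arrays 4 to 8 in the next 6. Arrays 11 to 13, 19 and 20 and arrays 14 to 18 are split likewise further on, so the pairs also share this split. Igfbp6 lay above its group mean on WT arrays 1 to 3 and 11 to 13 and below it on 4, 5, 14 and 15. In Mbd2-/- it lay below on 7, 9, 10, 19 and 20 and above on 6, 8 and 16 to 18. The part of column position was not tested.

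**Figure D4:**
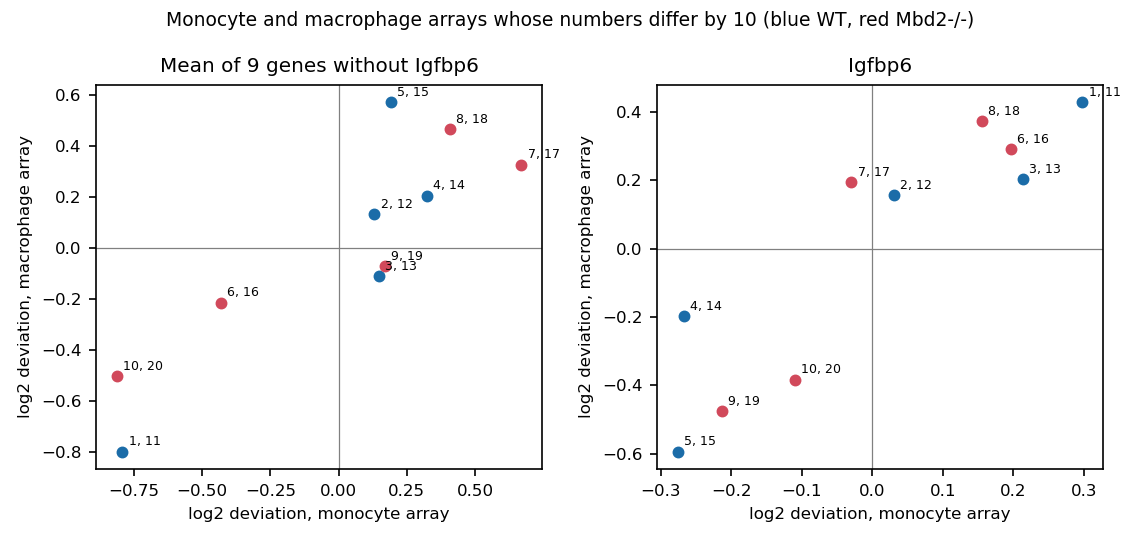
Deviation of a macrophage array from its group mean (y, log2) against that of the monocyte array whose number is smaller by 10 (x, log2), for the mean of the 9 genes and for Igfbp6; each point is 1 of 10 pairs with its array numbers. Pairs 1 and 11 and 10 and 20 are low in the 9 genes on both arrays, and pair 1 and 11 is high in Igfbp6.

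None of the 10 genes differed between Mbd2-/- and WT monocytes beyond the spread between arrays. Of 15 probes tested, 0 were called (limma, adjusted p under 0.05 and a log2 difference of at least 1), against 0.426% of the 16190 probes tested, and 0 reached an unadjusted p under 0.05, against 15.3%. The arrays of the genotypes overlapped for all 15, against 4.85% of all probes without overlap, and 12 of 15 differences were below 0, against 53.9%. The median difference of the 15 probes, Mbd2-/- minus WT, was -0.12, against -0.02 for all tested probes. The largest difference of a brightest probe was that of Col6a1, which was 7.74, 9.32, 9.04, 9.14 and 8.89 on WT arrays 1 to 5 and 7.77, 8.91, 8.65, 8.58 and 7.39 on Mbd2-/- arrays 6 to 10. These groups overlapped, with a difference of -0.57 ± 0.45 (SE, 95% interval -1.5 to 0.37, limma adjusted p = 0.600). Igfbp6 differed by -0.08 (95% interval -0.62 to 0.47, limma adjusted p = 0.930) and Dcn by -0.12 (-0.94 to 0.70, adjusted p = 0.928). Differences within these intervals are therefore not excluded by this comparison.

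In macrophages the genotype difference of Igfbp6 was known when the genes were chosen and is described here without a test. Igfbp6 averaged 7.14 ± 0.40 (SD, n = 5) in WT and 5.65 ± 0.40 (n = 5) in Mbd2-/- macrophages, a difference of -1.48 (2.79-fold lower in Mbd2-/-), and the arrays of the genotypes did not overlap. Raw intensities were 173 to 272 in WT and 98.1 to 149 in Mbd2-/-, close to the negative controls, and without background correction the difference was -0.79. With background correction it was -1.63 to -1.36 when any 1 array of the comparison was left out. As background, 1.48% of 16834 tested probes met the limits used for calls in the other cells, 1 of the 15 probes (Igfbp6) among them, and 25.3% had an unadjusted p under 0.05, with 2 of the 15 (Igfbp6 and Col1a1) among them. Nothing is read from these counts, since this comparison entered the choice of genes. Over all probes 5.29% did not overlap between genotypes, and 60.4% of differences were below 0, as were 11 of the 15. The other 9 genes overlapped between genotypes, with differences of their brightest probes from -0.72 (Col1a1) to 0.18 (Lum). Col1a1 was 5.44, 6.91, 5.89, 6.50 and 6.52 on WT arrays 11 to 15 and 5.50, 5.87, 6.19, 5.14 and 4.96 on Mbd2-/- arrays 16 to 20. Col6a1 (-0.70), Mgp (-0.66) and Col1a2 (-0.54) were the next lower in Mbd2-/-, and Dcn (-0.02), Sparc (0.10) and Col3a1 (-0.11) lay nearest to 0. The summed fibroblast markers were 1797 to 4381 in WT and 1660 to 3166 in Mbd2-/- macrophages, and their part in these differences was not tested.

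In cDC1s 0 of 15 probes were called, against 1.96% of the 17838 probes tested, though most values were lower on the Mbd2-/- arrays. The median difference of the 15 probes was -0.91, against 0.03 for all tested probes, and 13 of 15 were below 0, against 47.3% of all. Most of these probes move together over arrays, so here and in the other comparisons such counts are not of independent observations. The arrays of the genotypes overlapped for all 15 probes, while 31.8% of all probes did not overlap. Dcn was 11.73 and 10.67 on WT arrays 23 and 26 and 9.79, 11.54 and 8.75 on Mbd2-/- arrays 27, 28 and 30. Lum was 8.62 and 7.49 in WT and 6.43, 7.64 and 5.63 in Mbd2-/-. Array 28 lay within the WT range for both genes and the other Mbd2-/- arrays lay below it. The difference of Lum was -1.49 ± 0.58 (SE, 95% interval -2.69 to -0.28, limma adjusted p = 0.108), and that of Dcn -1.18 ± 0.57 (-2.36 to 0.01, adjusted p = 0.196). A second Dcn probe (10.67 and 8.95 in WT, 7.64, 9.43 and 6.36 in Mbd2-/-) differed by -2.0 ± 0.70 (SE, limma adjusted p = 0.075), and the second Lum probe by -1.33 (adjusted p = 0.102). In all, 3 of 15 probes had an unadjusted p under 0.05, against 25.8% of all. Median scaling moved the median of all tested probes to -0.37. It gave 577 calls among the 17838 probes tested, against 349 under quantile normalization. Of the 15 probes, 3 were then called. They were the second Dcn probe (-2.47, limma adjusted p = 0.038) and both Lum probes (-1.95, adjusted p = 0.045, and -1.78, adjusted p = 0.037).

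These values turned on single arrays. Without array 28, 4 of 15 probes were called. They were both bright Dcn probes (-2.81, limma adjusted p = 0.016, and -1.93, adjusted p = 0.024) and both Lum probes (-2.03, adjusted p = 0.043, and -1.92, adjusted p = 0.023). Without WT array 26, a single WT array is left, which is assumed to vary like the other groups. The second Dcn probe then differed by -2.87. Leaving out any of the other 3 arrays gave 0 calls. With any 1 array left out, the brightest Dcn probe ranged from -1.93 to -0.54 and the second from -2.87 to -1.14. The Lum probes ranged from -2.06 to -0.92 and from -1.92 to -0.92. The share of all tested probes called in these fits was not computed, so the calls do not set Dcn and Lum apart. On array 28 the summed fibroblast markers were 5730, against 2068 and 1385 on Mbd2-/- arrays 27 and 30 and 3380 and 2824 on WT arrays 23 and 26. Summed T cell markers were 3475 on array 28 and 3349 on WT array 23, against 820 to 1663 on the other 3 cDC1 arrays. The fibroblast list holds Thy1, which was also bright on the splenic T cell arrays. The part of these marker sums in the genotype difference was not tested. In the deposited table the WT cDC1 arrays stand in signal columns 6 and 12 and the Mbd2-/- ones in columns 18 to 25 of 30, so that position and genotype cannot be told apart.

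The remaining genes were less clear in cDC1s. Col4a1 was 9.21 and 9.03 in WT and 7.44, 9.76 and 7.23 in Mbd2-/-, a difference of -0.98 (95% interval -2.28 to 0.33, limma adjusted p = 0.343). Mgp was 9.70 and 9.55 in WT and 8.46, 11.00 and 8.15 in Mbd2-/-, so that the highest and the lowest cDC1 arrays were both Mbd2-/-. Col6a1 (-0.91), Sparc (-0.91), Col3a1 (-0.56), Mgp (-0.42) and Col1a2 (-0.39) had intervals that held 0, as had Col1a1 (0.06) and Igfbp6 (0.08, 95% interval -0.71 to 0.86, adjusted p = 0.928).

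**Figure D5:**
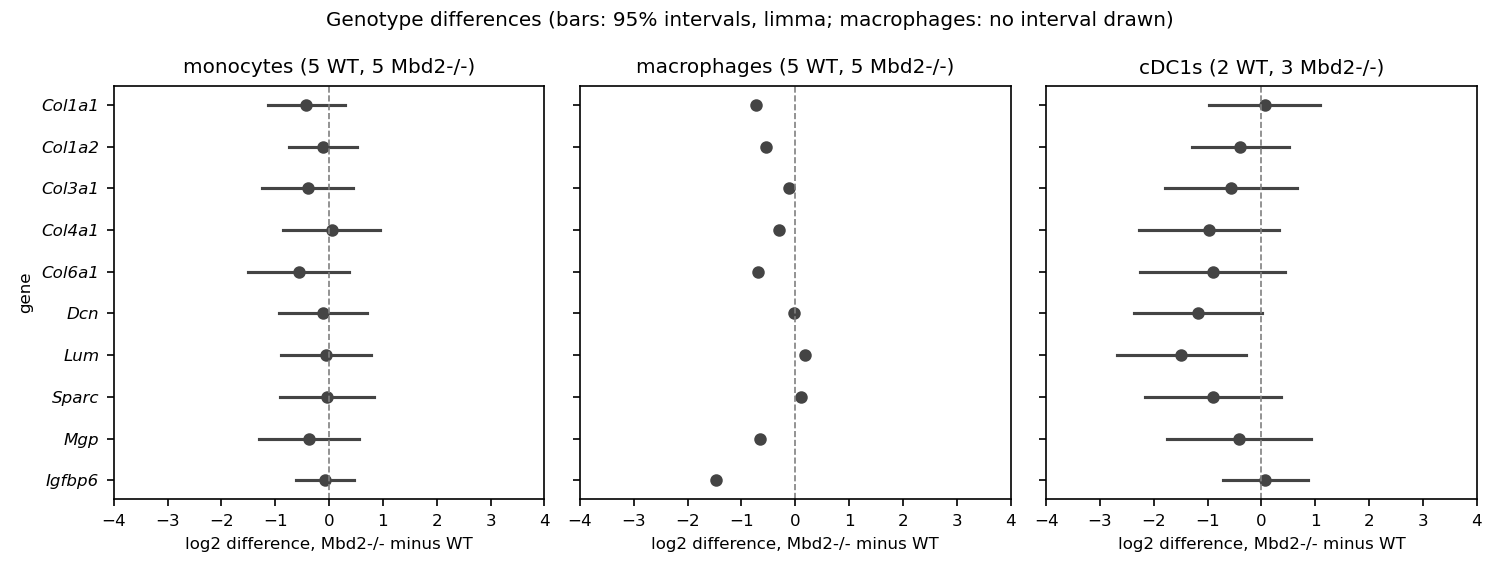
Log2 difference between Mbd2-/- and WT arrays (x) for the brightest probe of each gene (y) in monocytes, macrophages and cDC1s; points are estimates, and bars in the monocyte and cDC1 panels are 95% intervals from limma. Igfbp6 stands at -1.48 in macrophages and at -0.08 and 0.08 in the other cells, and of the intervals drawn only that of Lum in cDC1s lies below 0.

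The genotype effect was not shown to differ between cDC1s and monocytes for any gene. Of 15 probes, 0 were called for the difference between both effects, against 0.877% of 15280 probes, and 12 of 15 differences were below 0, against 44.7% of all. An unadjusted p under 0.05 was reached by 1 probe, against 20.0% of all, namely the second Dcn probe, at -2.09 (95% interval -3.86 to -0.33, limma adjusted p = 0.176). The difference of effects was -1.43 for the brightest Lum probe (-2.89 to 0.03, limma adjusted p = 0.262) and 0.15 for Igfbp6 (-0.81 to 1.11, adjusted p = 0.893).

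Over the 6 matrix lists pooled, 1 to 4 genes passed the test for genotype (adjusted p under 0.05) in each cell type, and no single list had more than 2. In monocytes 1 of 81 tested genes passed (1.23%, against 2.92% of all genes), Mrc1, which fell by 0.74 ± 0.19 (SE, limma adjusted p = 0.044). Of all genes, 1.28% were higher and 1.63% lower. In macrophages 2 of 83 passed (2.41%, against 8.71%), both higher in Mbd2-/-, against 4.1% of all genes higher and 4.65% lower. They were Igf1 (0.83, limma adjusted p = 0.017), on its dimmest probe, while its other probes gave 0.60 and 0.12, and Igf2r (0.77, adjusted p = 0.018), whose other probe gave -0.42. In cDC1s 4 of 82 passed (4.88%, against 10.8%), 3 higher and 1 lower, against 5.8% and 5.07% of all genes. Igf1 (1.01, limma adjusted p = 0.030), the scavenger receptor Stab1 (1.00, adjusted p = 0.023) and the collagen prolyl hydroxylase Lepre1 (0.63, adjusted p = 0.033) rose, and its relative Leprel1 fell by 1.12 (adjusted p = 0.022). Further probes of these genes did not pass, at -0.12 (Igf1), 0.42 (Stab1), -0.09 and 0.19 (Lepre1) and -0.52 (Leprel1). No gene of the stromal and fibroblast matrix list or the basement membrane list passed in any of the 3 comparisons, with median differences of -0.17, -0.37 and -0.35 in the stromal list and -0.09, -0.14 and -0.07 in the basement membrane list for monocytes, macrophages and cDC1s. The lists were small, so that the 2 genes in macrophages were 2 of 8 in the insulin-like growth factor list (25%), and Mrc1 was 1 of 10 in the receptor list (10%). With array weights, 4 list genes passed in monocytes. With a single array left out, the number of list genes that passed was 0 to 1 in monocytes, 0 to 4 in macrophages and 0 to 9 in cDC1s, the 9 being without WT array 26.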

How the data were processed

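The authors deposited raw intensities and detection p-values per probe from Illumina MouseWG-6 BeadChip arrays, per the file headers without normalization or background subtraction. Their notes name lumi and limma, with versions not given in the sources used here. Labels and methods differ on the RNA kit and on how many mice were pooled per replicate. Intensities were corrected for background with limma 3.58.1 (normexp, negative-control moments from detection p-values, offset 16), quantile normalized over the 25 colon arrays, and put on the log2 scale in R 4.3.3. T cell arrays were normalized with all 27. A linear model over 6 groups with empirical Bayes gave two-sided p-values, adjusted by Benjamini-Hochberg within each comparison. A probe was tested if its detection p-value was under 0.05 on a number of arrays not below the size of the smaller genotype group, and a call needed adjusted p under 0.05 and a log2 difference of at least 1. The number of arrays limits the precision. A gene of a list passed if any of its probes did. Genes were chosen, and lists of 116 genes and 12 sets of cell markers drawn up, with earlier results of these data known. All 10 genes are named, with their 3 nearest genes, and up to 5 list genes per direction that passed. Code was tested on simulated data. Alternatives were other background corrections, offsets, normalizations, filters, thresholds, array weights, column position, cell types alone, and arrays left out. 3 further signal columns were not used.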

Additional observations from a re-analysis of the deposited data

Results flagged for a closer look

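WT monocyte array 1 was flagged because it lay far below the other 4 arrays of its group for 4 of the 10 genes, of 40 combinations of gene and group checked. The gap to the next array, as a share of the whole range of the group, was 0.768 for Col3a1 (6.71, the next array at 7.79), 0.73 for Col6a1 (7.74 and 8.89), 0.718 for Col4a1 (8.13 and 9.02) and 0.717 for Mgp (9.09 and 10.01), against a limit of 0.71 for 5 arrays. Chance flags about 1 in 20 such groups, and the 4 genes move together over arrays, so these are not 4 independent flags. Igfbp6 was at 8.92 on the same array, the highest of its group.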

How the results depend on the processing

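No paired analysis was possible because WT and Mbd2-/- arrays share no number in the labels. Median scaling moved the median of all tested probes to -0.26 in monocytes, -0.07 in macrophages and -0.37 in cDC1s. Probes called over the whole table were then 30.2%, 77.5% and 1.56% higher in Mbd2-/-, against 75.4%, 91.6% and 40.7%. Over all tested probes, calls were 80 in macrophages and 577 in cDC1s, against 249 and 349. Of the 15 probes of the 10 genes, 14, 10 and 15 were then lower in Mbd2-/-.

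Among the 10 genes, 3 probes were called in cDC1s under median scaling. In macrophages, where Igfbp6 is described without a test, its difference without background correction (-0.79) fell short of the size limit of 1. No alternative gave a call in monocytes or for the difference between cDC1s and monocytes. Differences near 0 that were not called turned sign as follows. In monocytes Col4a1 went to -0.29 and a Dcn probe to -0.23 under median scaling, and Col4a1 to -0.021 with column position as a block. In cDC1s a Sparc probe went to 0.059 without background correction and 0.033 with an offset of 50, and Col1a1 to -0.39 and Igfbp6 to -0.43 under median scaling.

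With 1 array left out, values in monocytes ranged from -0.25 to 0.030 (Col1a2), -0.16 to 0.25 (Col4a1), -0.16 to 0.26 and -0.33 to 0.070 (Dcn probes), -0.21 to 0.14 and -0.38 to 0.011 (Lum probes) and -0.30 to 0.19 (Sparc). In cDC1s they ranged from -0.33 to 0.32 (Col1a1), -0.90 to 0.12 (Col1a2), -1.22 to 0.10 (a Col6a1 probe), -0.48 to 0.45 (Igfbp6), -1.32 to 0.11 (Mgp) and -0.70 to 0.55 (a Sparc probe). The ranges of the Dcn and Lum probes are given with the cDC1 results. From 0 to 4 probes were called, and the share of all tested probes called in these fits was not computed. List genes that passed ranged from 0 to 1 in monocytes, 0 to 4 in macrophages and 0 to 9 in cDC1s.

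List genes that passed in monocytes were 0 under median scaling, without a filter, with column position as a block and at an adjusted p under 0.01, and 4 with array weights. In macrophages they were 1 without background correction and under median scaling, and 0 with the cell type alone and at 0.01. In cDC1s they were 0 without a filter, with the cell type alone, with array weights and at 0.01. The span of cell type means moved to 1.75 for Igfbp6 without background correction and to 1.02 for Dcn under median scaling, and the median correlation of Igfbp6 with the 9 other genes to 0.13 without background correction. The cause of these changes was not tested. The block of column position could not be fitted for cDC1s, whose genotypes share no 6 columns. The background taken from negative control probes, added after the data were seen, changed no call of these genes.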
